A study of Mus musculus with 8 samples.

Results

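Liver RNA of mice in which Dicer1 was targeted in hepatocytes was set against liver RNA of Dicer1-intact littermates. All were taken 15 days after a single dose of N-ethyl-N-nitrosourea (ENU), a mutagen that alkylates DNA. The comparison uses 4 of the 8 arrays of the series, chosen by their titles: arrays a and b of the ENU-treated knockout and arrays a and b of the ENU-treated wild type. Mice of the knockout group (KO) were Albumin-Cre;Dicer1loxP/loxP. The group called wild type (WT) was Dicer1loxP/loxP without Cre, so both groups carried the floxed alleles and differed in Cre as well as in Dicer1. The albumin promoter drives Cre in hepatocytes, and whether bile duct cells or other liver cells lost Dicer1 was not measured here. Animals were C57BL/6, 6 months old and labelled female, and ENU was injected into the peritoneum at 120 mg/kg in 2 ml/kg. The remaining 4 arrays hold KO and WT livers given the vehicle dimethylsulfoxide (DMSO), at an age of 6 months. They share no sample and no slide with the ENU arrays and are given beside them as a second pair of RNA samples. How many animals gave each RNA is not given in the sources used here.

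Dicer is the ribonuclease that cuts hairpin precursors into mature microRNAs, short RNAs that guide Argonaute proteins to messenger RNAs and lower their stability and translation. A microRNA finds its targets mainly through its seed, the bases near its 5′ end. In adult liver miR-122 makes up most of the microRNA of hepatocytes, and the let-7, miR-29 and miR-21 families are also well known there. ENU transfers ethyl groups to DNA bases, and hepatocytes clear such lesions by routes that include direct reversal through Mgmt and base excision. A liver that loses hepatocytes can refill itself from dividing hepatocytes or from ductal progenitor cells, and fetal genes such as Afp and Igf2 are known to come back on in regenerating and transformed liver.

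A total of 17643 genes were measured, a gene being measured where at least 1 of its probes was well above background on both arrays of KO or on both arrays of WT. Values are log2 processed signals minus the 75th percentile of the array, so 0 is the 75th percentile, and differences are KO minus WT on this log2 scale. Signals at the 75th percentile were 671 and 681 on the KO arrays and 524 and 504 on the WT arrays. The program's flag for well above background was passed by 69.3% and 64.4% of spots in KO and 58.9% and 64.1% in WT. No spot was flagged as saturated. Over probes spotted at least 5 times, arrays a and b differed by a median of 0.756 (KO) and 0.710 (WT) standardised units. KO and WT arrays differed by 18.5 to 21.2 such units. The unit is the standard error of the difference between a probe's means on the arrays, computed from the spread between its spots. Arrays a and b were therefore counted as 1 RNA sample. The comparison thus has 1 RNA sample a group, no replicate error and no p-value, and the number of RNA samples limits its precision. A gene was called higher or lower where the difference was at least 2-fold and both arrays of one group lay above both arrays of the other. All 4 arrays shared a slide, where the KO arrays held positions 1 and 2 and the WT arrays positions 3 and 4: genotype and place on the slide cannot be told apart. The liver labels held: albumin (Alb) stood at 9.30 and 9.25 in KO and 9.75 and 9.87 in WT. The sex label did not. Probes of 5 Y-linked genes, Ddx3y, Uty, Eif2s3y, Zfy1 and Kdm5d, were well above background on all 8 arrays, and no Xist probe was above background on more than 3 of them. Ddx3y read 1.68 and 1.73 in KO and 1.95 and 1.82 in WT, so the Y-linked signal was present in both genotypes. This bears on the sex-biased genes described further on. In bulk liver, fewer cells of a type and less RNA per cell cannot be told apart, which holds for every result that follows.

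The arrays carry 2 probes for Dicer1. One, at chr12:102216485-102216544 of mm7, stood at 0.17 and 0.17 in KO and 0.42 and 0.42 in WT, a difference of -0.25 or 1.19-fold. The other spans 2072 bases, chr12:102186776-102188847, and so reaches across at least 1 intron. It read -3.94 and -4.10 in KO against -2.61 and -2.40 in WT, a difference of -1.51 or 2.85-fold. Both probes were lower on both KO arrays, with no overlap, and the same probes differed by -0.50 and -2.46 on vehicle. Which exons were floxed is not given in the sources used here, so neither probe can be said to lie in the deleted part, and neither can check the deletion by itself.

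The genotype difference was broad. Of the 17643 genes, 2533 (14.4%) were called higher in KO and 2476 (14.0%) lower, which is 28.4% in either direction, and the median difference over all genes was -0.10. At 4-fold, 850 genes (4.82%) were higher and 522 (2.96%) lower. Differences of at least 16-fold were seen for 94 genes higher and 50 lower, and of at least 64-fold for 13 and 10. In 15577 genes both groups were above background. A further 805 genes were above it in KO only and 133 in WT only. Such a gene passed through the group in which it was high, and its fold is given as a lower bound. The remaining genes fell in none of these groups. More spots passed the background flag on the KO arrays, and the part of this in the unequal counts was not tested. These shares are the background against which the counts of each gene group are read.

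**Figure D1:**
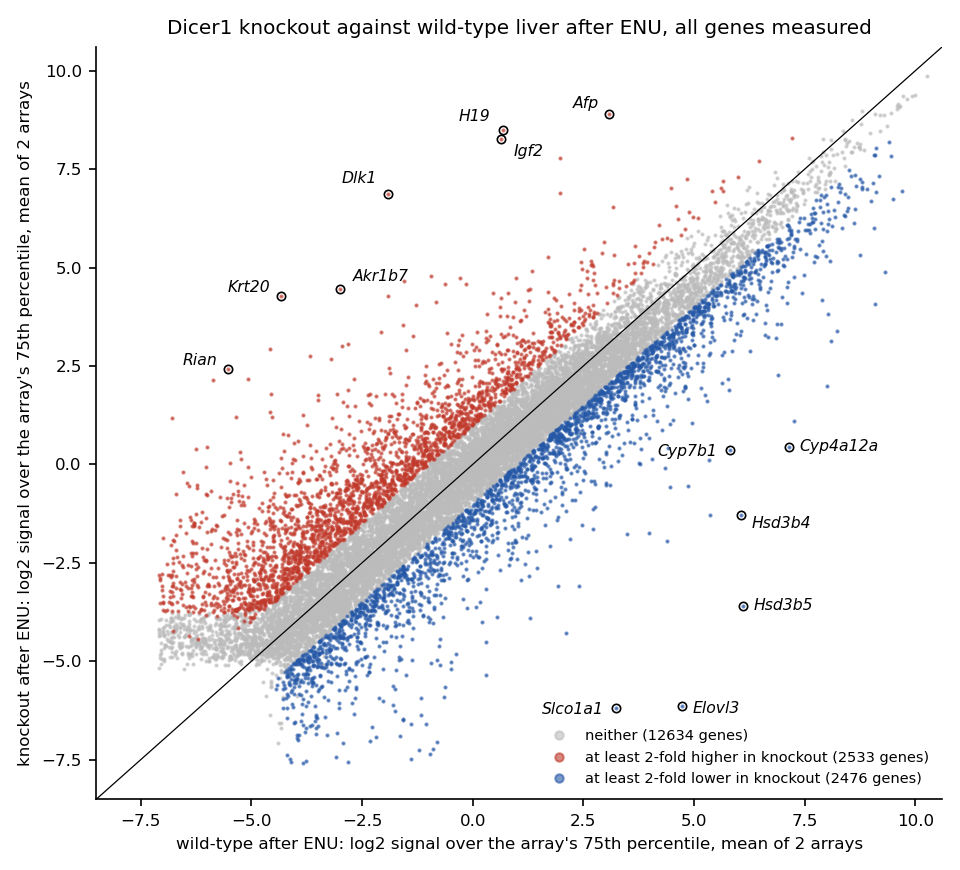
Mean log2 signal over the 75th percentile in WT (x axis) and KO (y axis) after ENU, each the mean of 2 arrays, for the 17643 genes measured. Red points are the 2533 genes called higher in KO, blue points the 2476 called lower and grey points the rest; the line marks equal signal, and Dlk1, H19, Igf2 and Afp lie far above it, Hsd3b5, Elovl3 and Slco1a1 far below.

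Dlk1, a membrane protein of fetal hepatoblasts, stood furthest above WT among genes measured in both groups. Its values were 6.87 and 6.88 on the KO arrays and -1.98 and -1.87 on the WT arrays, a 446-fold difference. H19, an imprinted noncoding RNA, followed with 8.52 and 8.49 against 0.68 and 0.67 (227-fold), and its neighbour Igf2, a fetal growth factor, with 8.25 and 8.26 against 0.66 and 0.64 (195-fold). The KO arrays of these genes lay at least 7 log2 units above the WT arrays. Behind them came the aldo-keto reductase Akr1b7 (173-fold), Wfdc3 (86.6-fold), Bex4 (72.5-fold), the tight-junction protein Cldn7 (62.6-fold), the proteoglycan Gpc3 (58.1-fold), the imprinted zinc-finger gene Peg3 (57.9-fold), alpha-fetoprotein (Afp, 56.5-fold) and the noncoding RNA Meg3 (55.7-fold). Next were Ly6d (5.73 on the log2 scale), the monoacylglycerol acyltransferase Mogat2 (43.4-fold), the cell-cycle inhibitor Cdkn1c (40.3-fold), Prom1 (38.5-fold), the keratin Krt23 (37.3-fold), the steroid dehydrogenase Akr1c18 (34.8-fold), the glutathione transferase Mgst2 (34.7-fold) and the neutrophil enzyme Mpo (34.2-fold). The keratin Krt20 stood at 4.27 and 4.28 in KO and -4.58 and -4.09 in WT, where only 1 of 2 arrays measured it, a difference of 8.62. Among genes below background in WT the largest bounds were those of the sulfotransferase Sult2a2 (at least 119-fold), Bex1 (at least 116-fold), Gipc2 (at least 79.7-fold), Siglecf (at least 60.9-fold), Tinag (at least 59.3-fold), Igdcc4 (at least 36.9-fold), sex hormone-binding globulin (Shbg, at least 35.8-fold), Smcp (at least 33.6-fold), Psca (at least 28.2-fold) and the zinc transporter Slc39a5 (at least 27.8-fold). A second Sult2a2 probe read 2.35.

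At the other end stood genes of adult hepatocyte metabolism. The fatty acid elongase Elovl3 was below background in KO and read 4.76 and 4.69 in WT, at least 1051-fold lower in KO. Hsd3b5, a male-type hydroxysteroid dehydrogenase, read -3.60 and -3.58 in KO and 6.09 and 6.13 in WT (834-fold), and its neighbour Hsd3b4 -1.30 and -1.28 against 6.08 and 6.06 (164-fold). The organic anion carrier Slco1a1 read -5.19 and -7.17 in KO, where only 1 array measured it, and 3.24 and 3.24 in WT, a difference of -9.42. For all of these genes the WT arrays lay above the KO arrays without overlap, as a call requires. Measured on only 1 array of one of the groups were also Ankrd1, Aqp7, Bub1, Chek1, Cldn4, Cyp2c66, Epcam, Gys1, Hamp2, Ier3, Il6, Kif11, Kif1a, Loxl4, Mx1, Myom1, Neil3, Ngp, Ntrk2, Slc7a1, Slc7a9, Sult1e1, Tnf and Tnfrsf10b, named further on. Also among the largest were the fatty acid hydroxylase Cyp4a12a (104-fold), Serpina4-ps1 (84.9-fold), the sulfotransferase Sult2a8 (71.7-fold), the acetyltransferase Nat8f5 (52.2-fold), the oxysterol hydroxylase Cyp7b1 (43.3-fold), Cyp2d13 (42.2-fold), Dct (38.2-fold), Susd4 (36.9-fold), Nlrp12 (32.6-fold) and the major urinary protein Mup5 (32.2-fold). Genes below background in KO included Adh6-ps1 (at least 23.2-fold), the carboxylesterase Ces4a (at least 21.3-fold), the ferritin receptor Scara5 (at least 19.1-fold), Gngt1 (at least 17.7-fold), the anion exchanger Slc26a4 (at least 17.6-fold) and Lcn12 (at least 17.1-fold), all as lower bounds. Members of gene clusters such as Hsd3b, Cyp2c, Cyp2d, Ugt2b and Mup are near-identical in places and may share probe signal, so values of single members are uncertain.

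**Figure D2:**
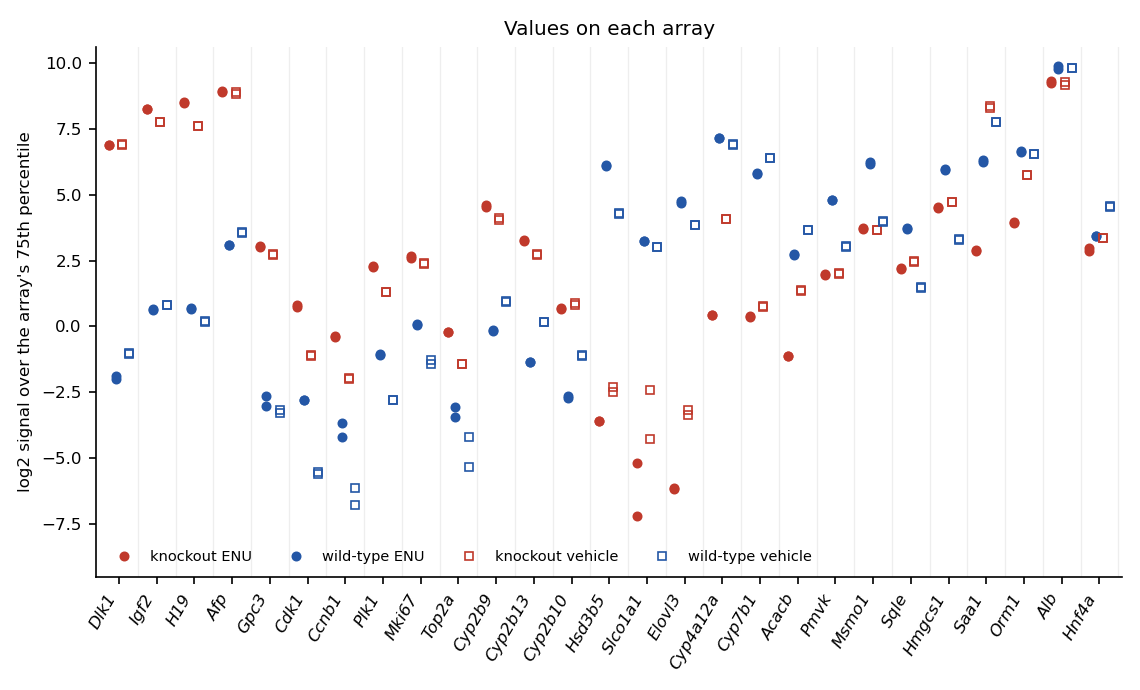
Log2 signal over the 75th percentile (y axis) of 27 genes (x axis) on each array: filled circles are the ENU arrays and open squares the vehicle arrays, red for KO and blue for WT, with 2 arrays a group. Levels of different genes are not comparable; within each gene arrays a and b nearly coincide in most groups, KO lies above WT from Dlk1 to Cyp2b10, and after ENU it lies below WT from Hsd3b5 to Orm1, while Alb and Hnf4a differ by less than 2-fold.

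Arrays of this kind measure messenger and long noncoding RNAs, so the mature microRNAs themselves were not measured. Members of let-7, miR-29 and miR-21, whose reported targets are among those followed here, are shown first, because the seed (bases 2 to 8, in capitals) is what groups them. Sequences are from RefSeq, assembly GRCm38.p6, written 5′ to 3′ in RNA letters. The 3 let-7 members shown share the seed GAGGUAG and the 3 miR-29 members the seed AGCACCA.
let-7a-5p: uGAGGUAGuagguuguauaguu
let-7c-5p: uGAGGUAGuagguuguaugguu
let-7g-5p: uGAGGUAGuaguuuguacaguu
miR-29a-3p: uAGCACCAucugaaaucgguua
miR-29b-3p: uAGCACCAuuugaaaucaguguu
miR-29c-3p: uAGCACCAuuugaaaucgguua
miR-21a-5p: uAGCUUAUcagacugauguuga

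Counts of reported targets are read against the 14.4% of all genes that were higher. Of 26 measured targets reported for miR-122, 15 were called higher and 0 lower, with a median difference of 1.33. They included the matricellular protein Ccn2 (3.59), the peroxidase Gpx7 (3.55), the chemokine Ccl2 (3.48), the transcription factor Klf6 (2.66), the ceramide synthase Cers6 (2.58), the muscle-type glycogen synthase Gys1 (2.09) and the glycolytic enzyme Aldoa (1.55). Aldoa read 7.21 and 7.19 in KO and 5.69 and 5.62 in WT. The cobalamin receptor Cd320 read 1.80 and 1.75 against 0.49 and 0.51. Other long-known targets differed by less than 2-fold: P4ha1 by 0.81, the arginine transporter Slc7a1 by 0.33, Ndrg3 by 0.29 and Cux1 by -0.87. On vehicle 11 of the 26 were higher and the median was 0.70.

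For miR-29, 11 of 15 measured targets were higher, 1 was lower and the median was 1.44. The higher ones were mostly collagens and elastic fibre genes: Col1a1 (3.07), Fbn1 (2.61), Col1a2 (2.40), Col3a1 (2.39), the lysyl oxidase Loxl2 (2.31) and Eln (1.63). Other Col3a1 probes read 2.83 and -0.58. The DNA dioxygenase Tet1 was lower (-1.67). Of the 15 targets 11 also stand in the matrix gene list described further on, and stellate cells and fibroblasts, in which Dicer1 was not targeted, are known to express them. For let-7, 8 of 23 measured targets were higher and 1 lower, with a median of 0.61. Higher were Arid3a (3.21), cyclin D1 (Ccnd1, 2.42), the RNA-binding protein Igf2bp3 (2.08), the phosphatase Cdc25a (1.93), Myc (1.53) and the receptor Tgfbr1 (1.35), while Hmga2 (0.44), Nras (0.42) and Ccnd2 (0.61) stayed under 2-fold and Hras was lower (-1.10). For miR-21, 7 of 9 measured targets were higher and 1 lower. The matrix regulator Reck stood at 1.69 and tropomyosin Tpm1 at 1.08, whereas Pdcd4 stood at -1.47. None of the microRNA list differences was tested, and the targets were taken from reports and not from seed matches.

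The microRNA machinery itself differed little. Of 17 measured genes 3 were higher and 0 lower, with a median of 0.17, the largest difference being that of Ago2, the Argonaute that cuts its targets (2.89 and 2.84 in KO, 1.54 and 1.59 in WT, a difference of 1.29). The other 2, Drosha and Tnrc6c, lay at the 2-fold limit, and with median centring or spike-in scaling only 1 gene was called. Transcripts that carry microRNAs were another matter. Of 16 measured host transcripts 7 were higher and 2 lower. The noncoding RNAs of the Dlk1-Dio3 domain stood out. Meg3 read 7.77 and 7.79 in KO and 1.97 and 1.99 in WT. Rian read 2.40 and 2.46 against -6.29 and -4.76 in WT and Mirg 2.94 and 2.94 against -4.50 and -4.65, each measured on only 1 of the 2 WT arrays. In KO all 3 were far above WT. Dnm3os, which carries miR-199a and miR-214, differed by 1.92 and Pank1, which carries miR-107, by -2.33. The microRNAs encoded in H19 and in the Rian and Mirg transcripts are shown because their host RNAs were among the most different in the liver; capitals mark the seed, and the sequences are from RefSeq on GRCm38.p6, where miR-675-3p lies at chr7:142577078-142577099 on the minus strand and miR-379-5p at chr12:109709065-109709085 on the plus strand. No seed is shared among those shown.
miR-675-3p: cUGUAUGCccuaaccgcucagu
miR-675-5p: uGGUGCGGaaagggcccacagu
miR-370-3p: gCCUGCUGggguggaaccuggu
miR-379-5p: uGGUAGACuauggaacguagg
miR-411-5p: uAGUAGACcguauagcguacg
miR-376a-3p: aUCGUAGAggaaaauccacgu
miR-410-3p: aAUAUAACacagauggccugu

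Imprinted genes, which are expressed from 1 parental allele and mostly silent in adult liver, were higher as a group: 19 of 37 measured were higher and 3 lower, with a median of 1.05. Beside the H19-Igf2 and Dlk1-Dio3 domains these were Peg3 (5.86), Cdkn1c (5.33), the signalling adaptor Grb10 (5.01), Sgce (2.83) and the clearance receptor Igf2r (1.75). Grb10 stood at 4.75 and 4.71 in KO and -0.37 and -0.20 in WT. The deiodinase gene Dio3, at the end of the Dlk1-Dio3 domain, was at least 7.11-fold higher. Others did not follow: Mest differed by 0.45, Ndn by -0.01, and Ascl2 (-1.65), Snrpn (-1.48) and Peg12 (-1.29) were lower. The 6 measured genes from Dlk1 to Dio3, at chr12:106981689-107799226 of mm7, formed an unbroken run of genes higher in KO, by 2.35 to 8.80.

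Fetal and oncofetal liver genes were higher almost without exception: 28 of 30 measured were called higher and 0 lower, with a median of 3.60. Afp read 8.92 and 8.87 in KO and 3.08 and 3.08 in WT, and Gpc3, a marker of liver cancer, 3.03 and 3.06 against -3.01 and -2.62. The transcription factors Sox4 (1.20 and 1.17 against -3.11 and -3.26) and Sox9 (1.52 and 1.51 against -0.32 and -0.35) were also higher, as were Bex1 (at least 116-fold), Scd2 (3.90), Cd24a (3.40), the Golgi protein Golm1 (3.11), Tspan8 (2.96) and Epcam (2.13). The groups did not overlap for any of these genes, as a call requires. Mest and Hmga2 were the 2 members under 2-fold. Markers of bile duct and progenitor cells moved with this list: 10 of 13 measured were higher and 0 lower, with a summed level of 85.5 to 85.7 times the 75th percentile in KO against 26.1 to 26.5 in WT. Osteopontin (Spp1), whose values are given with the matrix genes, was the largest single term of this sum in KO. The sum without it was not computed. Cldn7 (5.97), Krt7 (2.07) and Krt19 (1.43) were higher, Cldn4 (1.92, overlapping arrays) and Aqp1 (0.05) were not, and Cftr, Muc1 and Sctr were below background. Their part in the fetal gene result was not tested, and the lists share Prom1, Cd24a, Tspan8, Epcam, Sox9 and Krt19.

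Genes of mitosis were higher in KO: 39 of 40 measured members were called higher and 0 lower, with a median of 2.88 against -0.10 for all genes. The mitotic kinase Cdk1 read 0.74 and 0.79 in KO and -2.80 and -2.81 in WT (11.9-fold), its cyclin Ccnb1 -0.39 and -0.35 against -3.67 and -4.20 (11.8-fold) and the checkpoint kinase Bub1 -0.99 and -1.03 against -4.34 and -4.68 (11.3-fold). For each the KO arrays lay above the WT arrays, as a call requires. The same held for the kinase Plk1 (3.35), the spindle midzone protein Prc1 (3.29), the condensin subunit Ncapg (3.23), topoisomerase Top2a (3.04), cyclin A (Ccna2, 2.99), Ccnb2 (2.86), Cdc20 (2.81), survivin (Birc5, 2.66), the proliferation marker Mki67 (2.58), the transcription factor Foxm1 (2.05) and the centromeric histone Cenpa (1.14). Aurkb was below background in WT and at least 7.92-fold higher. The exception was the securin Pttg1 (-0.27). On vehicle 34 of the 40 were higher and the median was 2.76.

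Genes of S phase showed a smaller and more mixed difference. Of 39 measured, 22 were higher and 2 lower, with a median of 1.08. Cyclin E (Ccne1, 2.74), Uhrf1 (2.70), the repressor E2f7 (2.17), Gins2 (2.13), the licensing factor Cdc6 (2.03) and the ribonucleotide reductase subunit Rrm2 (1.85) were higher, as were Mcm2 to Mcm6 of the replicative helicase (Mcm5 1.75, Mcm2 1.45), of which Mcm7 differed by 0.99. Pcna (0.82) and Dnmt1 (0.85) stayed under 2-fold. The loading factor Mcm10 stood at 1.05 and 1.03 in KO and 4.95 and 4.97 in WT and the repressor E2f8 at -1.93 and -1.86 against 2.17 and 2.24, both lower in KO, against the direction of the rest. A second E2f8 probe read -0.49. Upstream of S phase, 8 of 27 measured cyclins, inhibitors, E2F and pocket protein genes were higher and 1 lower. They included Ccnd1 (2.42) and the inhibitor Cdkn2b (1.19), while the p53-induced inhibitor Cdkn1a differed by 0.77. Immune cell markers, given further on, were also higher in KO, and their part in the cell cycle results was not tested.

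The promoters of the mitosis genes share letters. The CHR element (TTTGAA, searched on both strands in RefSeq windows from 250 bases before to 50 after each start, GRCm38.p6) was found in 26 of 35 windows of the mitosis list (74.3%), against 17.9% of all 32851 windows and 12.8% of windows of measured genes. The CCAAT box (CCAAT on either strand) was in 74.3% of mitosis windows and 37.4% of all. In windows of the S-phase list the E2F forms TTTCCCGC and TTTGGCGC were each found in 15.0%, against 1.07% and 0.514% of all windows. Such matches are letters in a window and no evidence of binding, and the list was not chosen for them. The 160 bases before the start of Cdk1 (chr10:69352913-69353072, minus strand) and of Cdc20 (chr4:118437344-118437503, minus strand) are printed as examples, with CHR and CCAAT letters on either strand in capitals.
Cdk1: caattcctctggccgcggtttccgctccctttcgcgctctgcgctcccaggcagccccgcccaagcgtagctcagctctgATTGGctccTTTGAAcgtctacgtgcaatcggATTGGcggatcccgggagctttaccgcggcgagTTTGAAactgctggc
Cdc20: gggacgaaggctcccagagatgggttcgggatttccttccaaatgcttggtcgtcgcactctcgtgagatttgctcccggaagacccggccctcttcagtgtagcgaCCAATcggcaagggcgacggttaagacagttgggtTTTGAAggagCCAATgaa

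Genes of the response to DNA damage differed in both directions, targets of p53 more often higher than lower. Among 34 measured targets of p53, 12 were higher (35.3%) and 4 lower (11.8%), with a median of 0.37. Of all genes 14.4% were higher and 14.0% lower. Psrc1 (4.03) and the mitotic gene Gtse1 (at least 4.97-fold) were higher along with the death genes Pmaip1 (2.13), Tnfrsf10b (1.88) and Apaf1 (1.86), the stress gene Sesn2 (1.72), Phlda3 (1.35) and the hormone Gdf15 (1.14). The classical effectors Bax (-0.59 and -0.60 in KO, 0.63 and 0.66 in WT) and Bbc3 (1.07 and 1.09 against 2.40 and 2.39) were lower, with differences of -1.24 and -1.31. Mdm2 (-0.08), Ccng1 (0.54), Fas (-0.27) and Trp53 itself (-0.33) differed by less than 2-fold. On vehicle 6 of the 34 were higher and 0 lower.

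Repair genes were counted by pathway, beside the 14.4% of all genes that were higher and the 14.0% that were lower. Direct reversal and base excision repair, the routes that act on alkylated bases, held 1 gene higher (4.0%) and 2 lower (8.0%) of 25 measured, with a median of -0.07. The alkyltransferase Mgmt read -3.36 and -3.45 in KO and -2.08 and -1.99 in WT, a difference of -1.37, and was lower. The glycosylase Neil3, which acts in dividing cells, was higher (2.76). Mpg (-0.07), Ogg1 (0.00), Xrcc1 (0.01), Polb (-0.66) and Parp1 (-0.41) did not reach 2-fold. Of 46 measured genes of recombination, mismatch and nucleotide excision repair 10 were higher (21.7%) and 0 lower. The difference between these lists was not tested. Among them were genes of recombination, crosslink repair or the replication checkpoint: Fanci (2.78), Exo1 (2.71), Rad51ap1 (2.09), Brca1 (2.00), Fanca (1.91) and Chek1 (1.80). The mismatch gene Msh6 (0.08) and the damage kinases Atm (-0.30) and Prkdc (-0.14) stayed near 0. Of 37 measured apoptosis regulators 11 were higher (29.7%) and 4 lower (10.8%). Higher were the TWEAK receptor Tnfrsf12a (3.01), the killer protein Bcl2l11 (2.43), Casp12 (2.25) and the survival gene Bcl2 (1.56), while Casp8 (-0.26) and Bcl2l1 (-0.21) did not reach 2-fold.

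**Figure D3:**
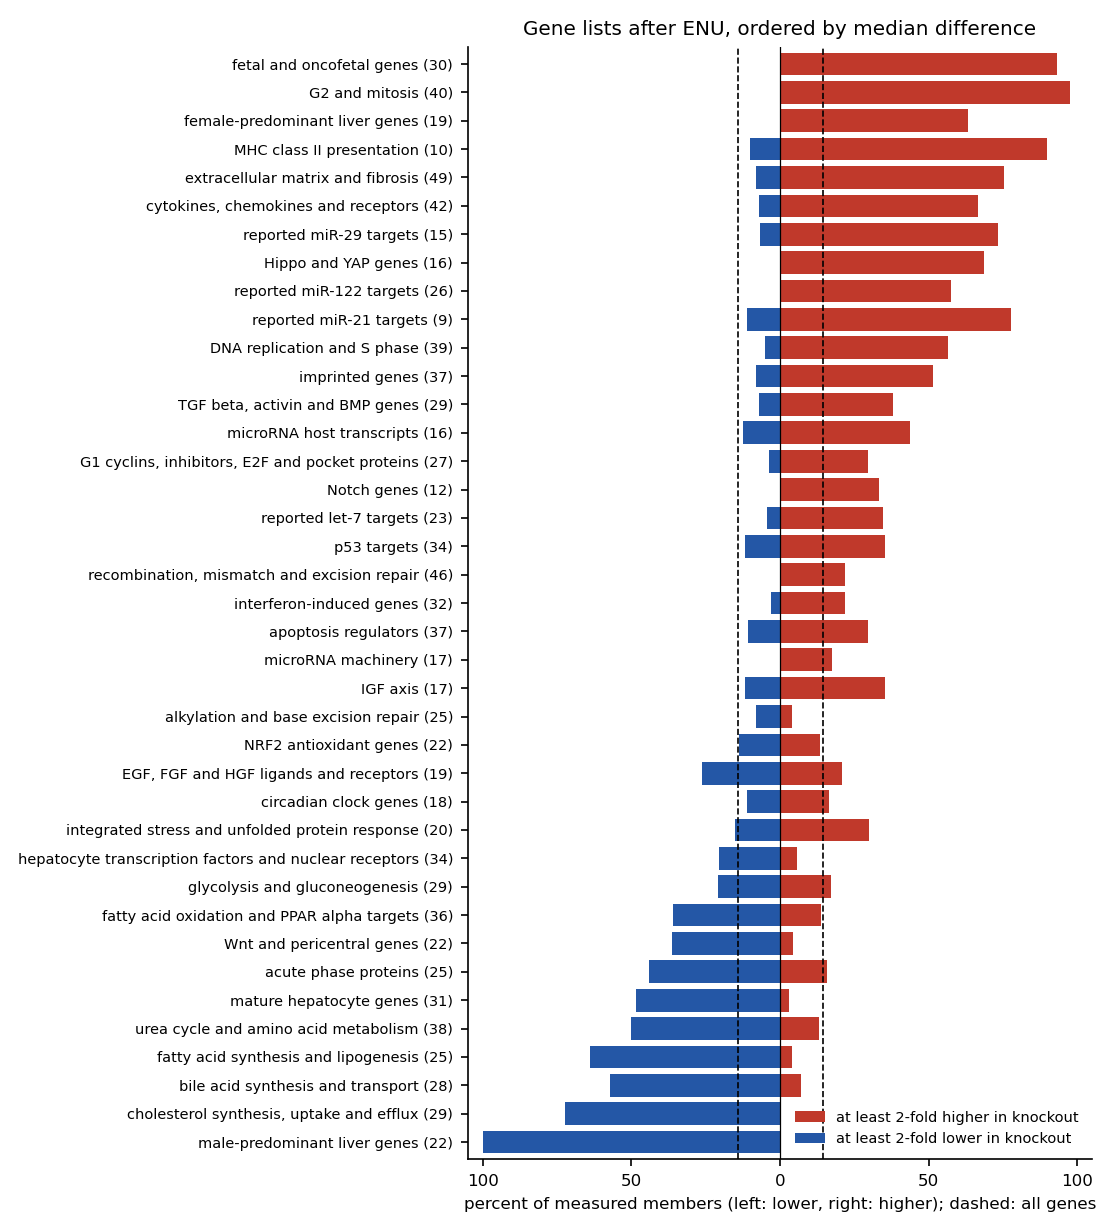
Percent of the measured members of 39 gene lists that were called at least 2-fold higher (red, to the right) or lower (blue, to the left) in KO after ENU, ordered by the median difference, with the number measured in brackets. Dashed lines mark the shares over all genes, 14.4% higher and 14.0% lower; fetal genes and mitosis lie at one end and cholesterol and male-predominant genes at the other.

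Mature hepatocyte genes were lower, but unevenly. Of 31 measured 15 were lower and 1 higher, with a median of -0.90. The tryptophan dioxygenase Tdo2 read 2.55 and 2.62 in KO and 5.18 and 5.23 in WT (-2.62), arginase (Arg1) 4.68 and 4.61 against 6.75 and 6.72 (-2.09) and the lectin receptor Asgr1 4.45 and 4.48 against 6.51 and 6.46 (-2.03). Apoa2 (-1.93), Hal (-1.92), Rgn (-1.90), tyrosine aminotransferase (Tat, -1.53) and transthyretin (Ttr, -1.18) were lower too. Alb itself differed by -0.53, and the iron hormone Hamp was higher (1.30). Of the master factors, Hnf4a stood at 2.88 and 2.99 against 3.42 and 3.42, Cebpa differed by -0.95 and Onecut1 by 0.27, all under 2-fold. Of 34 measured hepatocyte transcription factors and nuclear receptors 7 were lower and 2 higher. The lower ones included the constitutive androstane receptor Nr1i3 (-2.35), the small heterodimer partner Nr0b2 (-2.04), Ppara (-1.98), Bcl6 (-1.27) and the bile acid receptor Nr1h4 (-1.22), and the higher ones were Cebpd (1.95) and the female-specific repressor Cux2 (at least 15.9-fold). With normexp background correction and quantile normalization 7 of the 31 hepatocyte genes and 4 of the 34 factors were lower.

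Male-predominant liver genes were lower without exception: 22 of 22 measured, with a median of -3.46. Beside Elovl3, Hsd3b5, Slco1a1, Cyp4a12a, Sult2a8 and Cyp7b1, already given, they included Mup1 (6.94 and 6.93 in KO, 9.64 and 9.77 in WT), Cyp2d9 (7.05 and 7.04 against 8.78 and 8.83), the complement protein C6 (-3.43), the epidermal growth factor receptor Egfr (-2.09), Ugt2b38 (-2.63) and Gstp1 (-1.62). A call itself requires that no KO array overlaps a WT array, so this holds for all 22. Female-predominant genes moved the other way: 12 of 19 measured were higher and 0 lower, with a median of 2.78. Cyp2b9 read 4.54 and 4.61 in KO and -0.12 and -0.17 in WT (26.3-fold), Cyp2b13 3.27 and 3.23 against -1.35 and -1.36 (24.4-fold) and Cyp2b10 0.66 and 0.69 against -2.66 and -2.73 (10.3-fold). The neurotrophin receptor Ntrk2 (5.75) was higher, as were, below background in WT, Abcd2 (at least 10.4-fold) and Hao2 (at least 6.67-fold). With only genes above background on all 4 arrays, 5 female-predominant genes were counted higher. Other female-type genes did not differ by 2-fold, among them Cyp3a41a (-0.30), Cyp2a4 (0.48), Cyp17a1 (-0.82) and Sult1e1 (-0.26). On vehicle 21 of the 22 male-predominant genes were lower, with a median of -2.35, while 8 of the 19 female-predominant genes were higher and 2 lower, with a median of 0.45. The growth hormone receptor Ghr (2.87 and 2.90 in KO, 5.89 and 5.85 in WT) and its target Igf1 (5.29 and 5.25 against 7.23 and 7.20) were also lower.

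Cholesterol synthesis genes were lower after ENU along nearly the whole pathway: 21 of 29 measured members of the cholesterol list were lower and 0 higher, with a median of -1.50. From the start of the pathway on, the synthase Hmgcs1 read 4.53 and 4.51 in KO and 5.95 and 5.97 in WT (-1.44), the kinase Pmvk 1.98 and 1.94 against 4.79 and 4.79 (-2.83) and the methyl sterol oxidase Msmo1 3.72 and 3.71 against 6.22 and 6.16 (-2.48). All lay lower on both KO arrays, as a call requires. Nsdhl (-2.61), Fdps (-2.40), Idi1 (-2.30), Tm7sf2 (-2.24) and squalene epoxidase (Sqle, -1.51) were lower as well, together with the regulator Insig1 (-2.12). The driver Srebf2 (-0.94) did not reach 2-fold. On vehicle 7 of the 29 were lower and 1 higher, with a median of -0.33. The CCAAT box was found in 19 of 26 promoter windows of the cholesterol list (73.1%), against 37.2% of windows of measured genes. By gene it was in 19 of 20 with a window (95.0%), against 42.3% of measured genes. The sterol regulatory element TCACCCCAC was in only 1 of the 26 windows (3.85%), against 0.551% of all windows. For female-predominant genes it was in 1 of 17 windows (5.88%). The promoters of Hmgcs1 and Msmo1 are printed because Hmgcs1 was higher in KO on vehicle (1.41) and Msmo1 was not (-0.33): 160 bases before the start on GRCm38.p6 (RefSeq), at chr13:119690191-119690350 on the plus strand for Hmgcs1 and chr8:64733579-64733738 on the minus strand for Msmo1, with CCAAT letters on either strand and the sterol element in capitals.
Hmgcs1: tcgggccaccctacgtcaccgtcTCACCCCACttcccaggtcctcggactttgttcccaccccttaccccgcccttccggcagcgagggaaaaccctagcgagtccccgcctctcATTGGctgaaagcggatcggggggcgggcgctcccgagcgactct
Msmo1: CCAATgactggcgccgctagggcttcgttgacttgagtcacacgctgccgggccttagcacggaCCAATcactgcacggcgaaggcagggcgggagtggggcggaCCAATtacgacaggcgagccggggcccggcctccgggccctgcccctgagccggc

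Other metabolic lists leaned the same way. Of 25 measured genes of fatty acid synthesis 16 were lower and 1 higher: the carboxylase Acacb read -1.14 and -1.14 in KO and 2.71 and 2.73 in WT (-3.86), Thrsp differed by -4.42, the desaturases Fads1 and Scd1 by -3.11 and -3.01 and Fasn by -1.10, while the fetal-type desaturase Scd2 was higher (3.90). Of 28 measured genes of bile acid synthesis and transport 16 were lower and 2 higher. Cyp7a1, the rate-limiting enzyme of the main route, read 0.67 and 0.65 against 0.92 and 0.90 and was not called, but Cyp27a1 (-2.89), Cyp8b1 (-1.26), Slco1b2 (-2.48), Slc27a5 (-2.44) and the uptake carrier Slc10a1 (-2.19) were lower. The basolateral exporters Slc51b (2.56) and Abcc4 (2.37) were higher. Fatty acid oxidation held 13 lower and 5 higher of 36 measured, among them Cpt1a (-1.42) on the lower side and the thioesterases Acot1, Acot2 and Acot3 (1.07, 2.03 and at least 6.97-fold) and Vnn1 (2.38) on the higher. With normexp and quantile normalization the lower counts of these 3 lists were 9, 10 and 7.

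Some glycolysis isoforms went in opposite directions. The liver pyruvate kinase Pklr read -1.86 and -1.90 in KO and 0.33 and 0.28 in WT. It was lower in KO, whereas the fetal and muscle-type enzymes Hk2 (1.71), Pkm (1.58) and Aldoa (1.55) were higher. Over 29 measured genes 5 were higher (17.2%) and 6 lower (20.7%), near the 14.4% and 14.0% of all genes. Amino acid metabolism split likewise. Of 38 measured genes 19 were lower and 5 higher. Degradation and urea cycle enzymes were lower: Oat (-2.86), Ahcy (-1.94), Otc (-1.79), Mat1a (-1.07) and the liver glutaminase Gls2 (-1.50). Serine synthesis was higher, with Psat1 at 1.03 and 0.99 in KO and -3.76 and -3.74 in WT (27.2-fold) and Phgdh at 0.87 and 0.83 against -2.43 and -2.62 (10.4-fold), as was Mat2a (1.19). With normexp and quantile normalization 8 genes of this list were lower.

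Acute phase proteins were lower after ENU in 11 of 25 measured genes and higher in 4. Serum amyloid A genes led: Saa1 read 2.85 and 2.89 in KO and 6.30 and 6.23 in WT, Saa2 3.23 and 3.23 against 6.64 and 6.69 and Saa3 0.88 and 0.86 against 4.29 and 4.25. The differences were -3.39, -3.44 and -3.40. The orosomucoid Orm1 (-2.72), Saa4 (-2.75) and the metallothionein Mt1 (-1.29) were lower too. Haptoglobin (Hp, -0.73) and Serpina3n (-0.42) did not reach 2-fold, and lipocalin (Lcn2, 3.15), which neutrophils also make, Hamp2 (2.17) and Cd14 (1.70) were higher.

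Cytokine and chemokine genes were higher: 28 of 42 measured, with 3 lower and a median of 1.47. The fractalkine ligand Cx3cl1 (4.10) and its receptor Cx3cr1 (3.83) were higher, as were Ccl2 (3.18 and 3.16 in KO, -0.31 and -0.30 in WT) with its receptor Ccr2 (3.06), Ccl17 (3.41), Cxcl10 (2.56), Tnf (1.53) and Il1b (1.34). Il6 (0.75) and Cxcl12 (0.47) stayed under 2-fold, Cxcl1 was at -0.30, and Cxcl11 (-3.06), Ccl25 (-1.86) and Il18 (-1.59) were lower. Class II antigen presentation was higher in 9 of 10 measured genes, such as H2-Ab1 (2.14), H2-Aa (2.03), Cd74 (1.45) and the transactivator Ciita (2.02), and lower in H2-Eb1 (-1.12). Of 32 measured interferon-induced genes 7 were higher (21.9%) and 1 lower after ENU, and 16 were higher on vehicle. Of 21 measured Oas, Ifit and Gbp family genes 8 were higher (38.1%) and 0 lower, with a median of 0.95. Ifit2 stood at 2.59, but Irf7 (0.10), Isg15 (-0.41) and Mx1 (0.64) did not reach 2-fold.

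Markers of several immune cell types moved with these genes, beside 14.4% of all genes higher and 14.0% lower. Neutrophil markers were higher in 14 of 15 measured and lower in 0, with a summed level of 70.4 to 71.5 times the 75th percentile in KO and 9.68 to 9.84 in WT. They include S100a8 (3.21 and 3.23 in KO, 0.30 and 0.31 in WT), S100a9 (2.69), Ngp (3.78), Ltf (3.49) and Ctsg (3.43); Prtn3 (-0.20) did not differ by 2-fold and Fcnb was below background. Only genes above background on all 4 arrays leave 9 of them in the count. Macrophage markers were higher in 12 of 19 and lower in 1, with summed levels of 398 to 404 against 154 to 157. Trem2 (4.40), Gpnmb (at least 10.7-fold) and Lyz2 (2.41) were higher, the Kupffer cell markers Clec4f (0.71), Vsig4 (0.46) and Timd4 (-0.05) were not, and Cd163 was lower (-1.26). Markers of T and NK cells were higher in 8 of 17 measured and lower in 0 (16.6 to 16.8 against 7.36 to 7.46), with Cd8a at 1.91 and Cd4 at -0.98, and Ncr1 below background. Markers of B and plasma cells were higher in 4 of 11 (23.2 to 23.3 against 14.2 to 14.3), with Jchain at 2.99. Dendritic cell markers were higher in 1 of 7 (14.3%), near the share of all genes, with summed levels of 3.49 to 3.53 against 1.55 to 1.63. Platelet markers were higher in 3 of 6 (6.13 to 6.20 against 1.88 to 1.92). Red cell precursor markers were lower in 2 of 5 (53.7 to 55.5 against 117 to 119), mesothelial markers and the single measured mast cell marker were called in neither direction, and of 2 measured adipocyte markers 1 was higher and 1 lower. Their part in the cytokine and antigen presentation results was not tested.

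Genes of the extracellular matrix were higher in 37 of 49 measured and lower in 4, with a median of 1.60. Col1a1 read 3.06 and 3.07 in KO and -0.01 and -0.01 in WT, Ccn2, a growth factor of scar tissue, 4.22 and 4.22 against 0.60 and 0.66 and osteopontin (Spp1) 5.46 and 5.47 against 2.53 and 2.49. The groups were apart in each, as a call requires. Lumican (Lum, 2.88), Loxl1 (2.85), Mmp2 (2.46) and Timp1 (1.14, with 3.97 and 3.88 on its other probes) were higher, Lox was at least 5.68-fold higher from below background in WT, and fibronectin (Fn1) differed by 0.97. Col5a3 (-1.78), Col27a1 (-1.58, with -1.73 and 0.55 on other probes), Loxl4 (-1.30) and Lamb3 (-1.10) were lower. Stellate cell and myofibroblast markers were higher in 8 of 15 measured and lower in 0, with summed levels of 226 to 230 in KO and 164 to 165 in WT. Pdgfra (2.19), Cygb (2.08) and Vim (1.79) were higher, Acta2 (0.28) and Lrat (0.64) were not, and Gfap was below background. Endothelial markers were higher in 0 and lower in 0 of 18, with summed levels of 73.5 to 75.6 against 96.5 to 99.0. The part of these cells in the matrix result was not tested.

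Among signalling genes, the Hippo and YAP list was higher in 11 of 16 measured and lower in 0, with a median of 1.43: the YAP targets Ankrd1 (-1.28 and -1.31 in KO, -6.63 and -4.61 in WT), Ccn2 and Ccn1 (2.44) and the cofactors Tead2 (3.04) and Tead4 (at least 6.35-fold) were higher, while Yap1 differed by 0.26. Notch genes were higher in 4 of 12, with Hey1 at 2.19 and the ligand Jag1 at 1.48, and Notch1 at -0.44. Of 29 measured genes of the TGF beta, activin and BMP pathways 11 were higher and 2 lower. The ligands Tgfb2 (2.36) and Tgfb3 (2.30) and the receptor Tgfbr2 (1.54) were higher, Tgfb1 differed by 0.58, and the hepatocyte activins Inhbc (-2.21) and Inhbe (-1.11) were lower. Wnt and pericentral genes were lower in 8 of 22 and higher in 1. The stem cell receptor Lgr5 read -2.19 and -2.19 in KO and 0.02 and 0.11 in WT, the glutamate carrier Slc1a2 differed by -3.15 and Sp5 by -2.14, while Ctnnb1 (0.19) and Axin2 (-0.03) stood near 0 and the secreted inhibitor Wif1 was at least 18.8-fold higher. The IGF axis held 6 genes higher and 2 lower of 17, among them the binding protein Igfbp1 (1.25) beside Igf2, while the receptor Igf1r differed by 0.95. Of 19 ligands and receptors of the EGF, FGF and HGF families 4 were higher and 5 lower: Hgf (1.47), Hbegf (2.09) and the receptor Erbb2 (1.41) on the higher side, Egfr and Fgf1 (-2.77) on the lower, and the receptor Met (0.08) near 0. In the NRF2 list 3 of 22 were higher (13.6%) and 3 lower (13.6%), near the 14.4% and 14.0% of all genes. Gclc (-2.14) and Hmox1 (-1.23) were among the lower. In the stress response list 6 of 20 were higher (30.0%) and 3 lower (15.0%), with Atf3 at 2.79, Atf4 at -0.75, Hspa5 at -0.53 and Chac1 at -3.36.

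**Figure D4:**
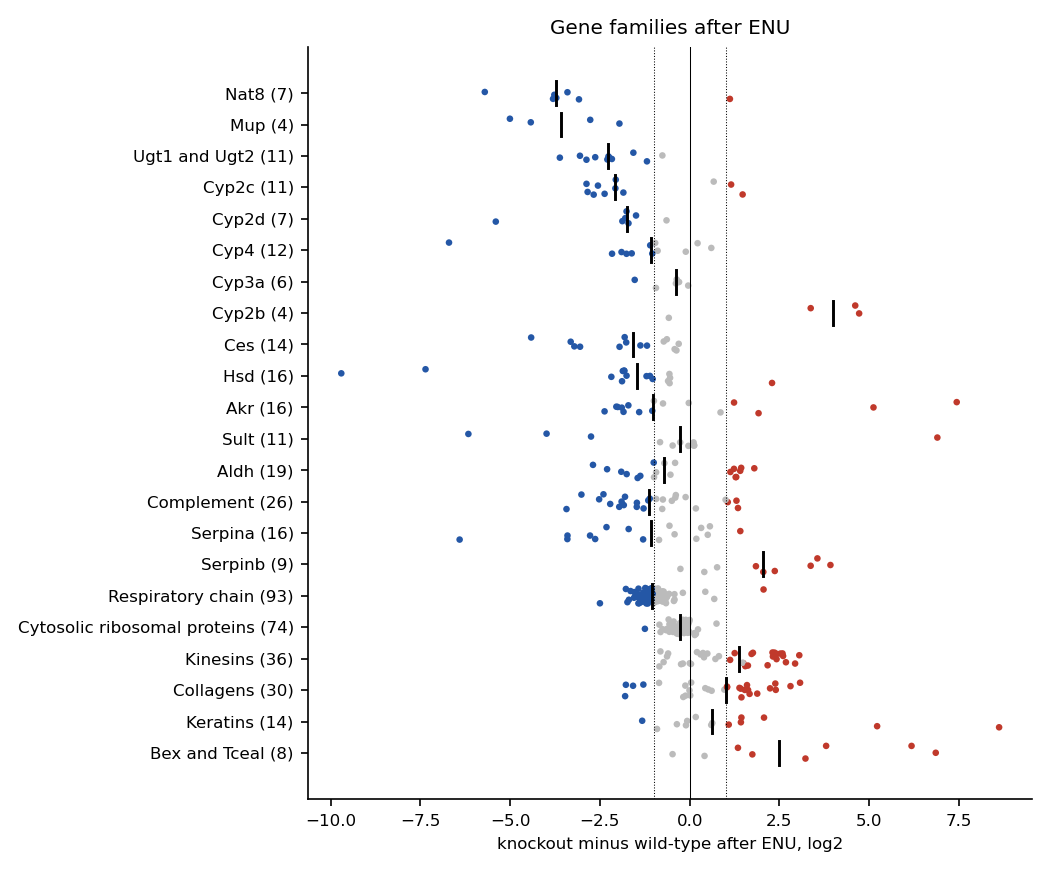
Difference of KO minus WT after ENU (x axis, log2) for each measured member of 22 gene families (rows, number measured in brackets); red points are called higher, blue points lower, grey points neither, and black bars are the family medians. Dotted lines mark 2-fold; Nat8, Mup, Ugt and most Cyp2c and Cyp2d members lie to the left, Cyp2b, Serpinb, kinesins and Bex genes to the right, and cytosolic ribosomal proteins within 2-fold with 1 exception.

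Gene families, grouped by symbol, showed which enzymes of drug and steroid metabolism differed. In the cytochromes P450, 8 of 11 measured Cyp2c genes were lower, Cyp2c54 (-2.87) the most, and 2, Cyp2c65 (at least 2.78-fold) and Cyp2c66 (1.15), higher. In Cyp2d 6 of 7 were lower, Cyp2d26 (-0.65) being the exception, and in Cyp4 7 of 12. In Cyp2b 3 of 4 were higher. Cyp3a was lower in 1 of 6, and its main adult member Cyp3a11 differed by -0.38. Both measured retinoic acid hydroxylases were lower, Cyp26a1 reading 0.49 and 0.36 in KO and 4.43 and 4.38 in WT. Among conjugating enzymes, 10 of 11 measured Ugt1 and Ugt2 genes (Ugt2b1 -3.62) and 6 of 7 Nat8 genes were lower, with Nat8l (at least 2.17-fold) opposite. Of 11 sulfotransferases 3 were lower and 1 higher. Among glutathione transferases 2 of 7 Gstm genes were lower, Gsta held 1 higher and 1 lower of 4, none of 3 Gstt genes was called, and 4 of the 6 others were lower. Of the hydrolases and oxidoreductases, 9 of 14 carboxylesterases (Ces1f -3.31, Ces3b -3.05) and 4 of 5 alcohol dehydrogenases (Adh4 -2.75) were lower. Of 16 hydroxysteroid dehydrogenases 11 were lower and 1, Hsd3b1 (2.29), higher. Sulfotransferases of the Sult2a group stood at both extremes, Sult2a2 at 2.12 and 2.16 in KO from below background in WT and Sult2a8 at 1.07 and 1.11 in KO against 7.28 and 7.23 in WT. Aldo-keto reductases also split, with 8 of 16 lower, all but Akr1e1 of the Akr1c group, and Akr1b7, Akr1b10 (1.92), Akr1b3 (1.24) and Akr1c18 higher. Aldehyde dehydrogenases split 7 to 7 of 19, Aldh1a1 (-2.69) and Aldh2 (-1.91) on the lower side and Aldh1b1 (1.80) and Aldh1a2 (1.28) on the higher.

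Secreted plasma proteins followed the hepatocyte genes. Complement was lower in 14 of 26 and higher in 3, with the terminal components C6 (-3.43), C8g (-3.02), C8b (-2.52), C8a (-2.40) and C9 (-2.21) lowest and C1qa and C1qb, which macrophages make, higher (1.06 and 1.35). Serpina genes were lower in 8 of 16, and the intracellular Serpinb genes, of the same superfamily, were higher in 6 of 9, with Serpinb6b at 3.92. All 4 measured Mup genes were lower. Among structural families, kinesins were higher in 19 of 36 and lower in 0. The mitotic motors Kif20a (3.05) and Kif11 (2.94) led them, together with the neuronal Kif1a (2.68). Centromere proteins were higher in 11 of 21 and lower in 1, collagens in 15 of 30 and 4, integrins in 12 of 25 and 1, matrix metalloproteinases and their inhibitors in 11 of 16 and 0 and laminins in 6 of 10 and 2, with Lama3 (-3.51 and -3.71 in KO, -0.11 and 0.24 in WT) against the rest. Keratins of simple and intestinal epithelium were higher: Krt20 (8.62), Krt23 (5.22) and Krt7 (2.07). S100 genes split, with S100a11 (3.27) and S100a4 (2.47) higher and S100a1 (-2.24) lower.

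Housekeeping families differed by small steps. Of 93 measured genes of the mitochondrial respiratory chain 51 were lower and 1 higher, with a median of -1.06, and of 78 mitochondrial ribosomal proteins 26 were lower, with a median of -0.85. These medians lie near the 2-fold limit, and the counts depended on the scaling: with normexp and quantile normalization 9 and 5 were lower, and with median centring 43 of the mitochondrial ribosomal proteins were. Cytosolic ribosomal proteins were lower in 1 of 74, with a median of -0.27, and proteasome genes in 0 of 44, with 1 higher. Histones were higher in 7 of 33 and lower in 2, and with normexp or quantile normalization 19 were higher. Olfactory receptors were lower in 46 of 147 measured, of 911 on the array, but 25 of the measured ones were above background in WT only and 15 in KO only, and with normexp the count was 11. The 11491 probes below background on all 4 arrays also stood lower in KO, by a median of -0.56, so probes with no signal read lower there too.

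Some neighbouring genes differed together. Among genes measured in chromosome order, 18 unbroken runs of at least 5 genes called in 1 direction were found, neighbours starting at most 1000000 bases apart. Of all genes 28.4% were called, and how many such runs that share alone would give was not computed. The longest held 8 lower genes each: Smdt1, Ndufa6 and the Cyp2d genes on chr15 (chr15:82433356-82721244 of mm7) and the Ugt2b genes with Sult1b1 on chr5 (chr5:86854051-87451744). Runs of 7 lower genes held the Akr1c genes with Akr1e1 on chr13 (chr13:4087761-4477641), the Cyp2c genes on chr19 (chr19:39222926-40047312) and the Nat8 genes with Tprkb on chr6 (chr6:85883597-86004770). Runs of 6 higher genes were the Dlk1 to Dio3 domain, the immunoglobulin kappa variable genes on chr6 and, on the X chromosome, the Bex and Tceal genes (chrX:130785911-130990954), where Bex1, Bex2, Bex4 and Bex3 stood at at least 116-fold, at least 13.9-fold, 72.5-fold and 9.35-fold. Most runs are clusters of paralogs, whose probes can share signal.

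The vehicle arrays hold the same genotype difference in other samples. Of the 17643 genes, 2403 (13.6%) were higher in KO on vehicle and 1880 (10.7%) lower. Of the 2533 genes higher after ENU 1826 were also higher on vehicle (72.1% of the ENU list and 76.0% of the vehicle list). For lower genes the overlap was 1317 (53.2% and 70.1%). Of the higher genes 7 were called lower on vehicle, and of the lower genes 10 were called higher. The ENU arrays shared 1 slide and the vehicle arrays another, so treatment and slide cannot be told apart, and with 1 RNA sample a group the difference between the differences was not tested. Spike-in control probes stood 3.07 and 3.02 above the 75th percentile (log2) on the KO vehicle arrays and 3.54 and 3.55 on the WT vehicle arrays. After ENU they stood at 3.12 and 3.09 in KO and 3.04 and 3.07 in WT. Vehicle differences thus depend on the scaling, and other scalings were run for the ENU pair only.

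Some groups differed between ENU and vehicle in size or sign. For cholesterol, Hmgcs1 read 4.71 and 4.72 in KO and 3.33 and 3.29 in WT on vehicle, higher in KO, and 4.53 and 4.51 against 5.95 and 5.97 after ENU, lower in KO. In KO its values were close on both slides, and in WT they were higher after ENU. Squalene epoxidase (Sqle) read 2.46 and 2.43 and 1.49 and 1.44 on vehicle, under 2-fold apart, and 2.20 and 2.19 and 3.72 and 3.70 after ENU. Saa1 stood at 8.35 and 8.28 in KO and 7.75 and 7.76 in WT on vehicle, a difference of 0.56, against -3.39 after ENU. Both genotypes read lower after ENU than on vehicle, KO by more. Cyp4a12a differed by -2.82 on vehicle and -6.70 after ENU, and Cyp26a1 by -0.47 and -3.98. The gap was largest for Ppp1r3g, a glycogen-targeting subunit of a phosphatase, with -0.20 and -0.21 in KO and 2.66 and 2.65 in WT on vehicle and 0.37 and 0.37 and -2.26 and -2.27 after ENU. Its KO values were close and its WT values far apart. Prelid2 (1.35 on vehicle, -2.95 after ENU), prostaglandin synthase Ptgds (1.25 and -2.51) and Syt10 (-0.18 and -3.53) had lower differences after ENU.

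Some clock genes also differed between ENU and vehicle in size or sign. The output gene Dbp read 2.50 and 2.49 in KO and 4.48 and 4.46 in WT on vehicle and 2.69 and 2.66 and 0.82 and 0.83 after ENU, and Per1 1.49 and 1.53 and 1.87 and 1.90 against 0.86 and 0.93 and -1.82 and -1.77. In WT both stood lower after ENU than on vehicle. In KO Dbp stood close on both slides and Per1 was lower after ENU by less than in WT. Of 18 measured clock genes 3 were higher (16.7%) and 2 lower (11.1%) after ENU, near the 14.4% and 14.0% of all genes. On vehicle 0 were higher and 10 lower, beside 13.6% and 10.7% of all genes. Nr1d1 differed by -2.31 on vehicle and -0.77 after ENU. The hour of tissue collection is not given in the sources used here. Mitosis genes, fetal genes, male-predominant genes and matrix genes had the same direction in both pairs, and the medians of those lists are given above or, for fetal and matrix genes on vehicle, were 3.61 and 2.03.

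**Figure D5:**
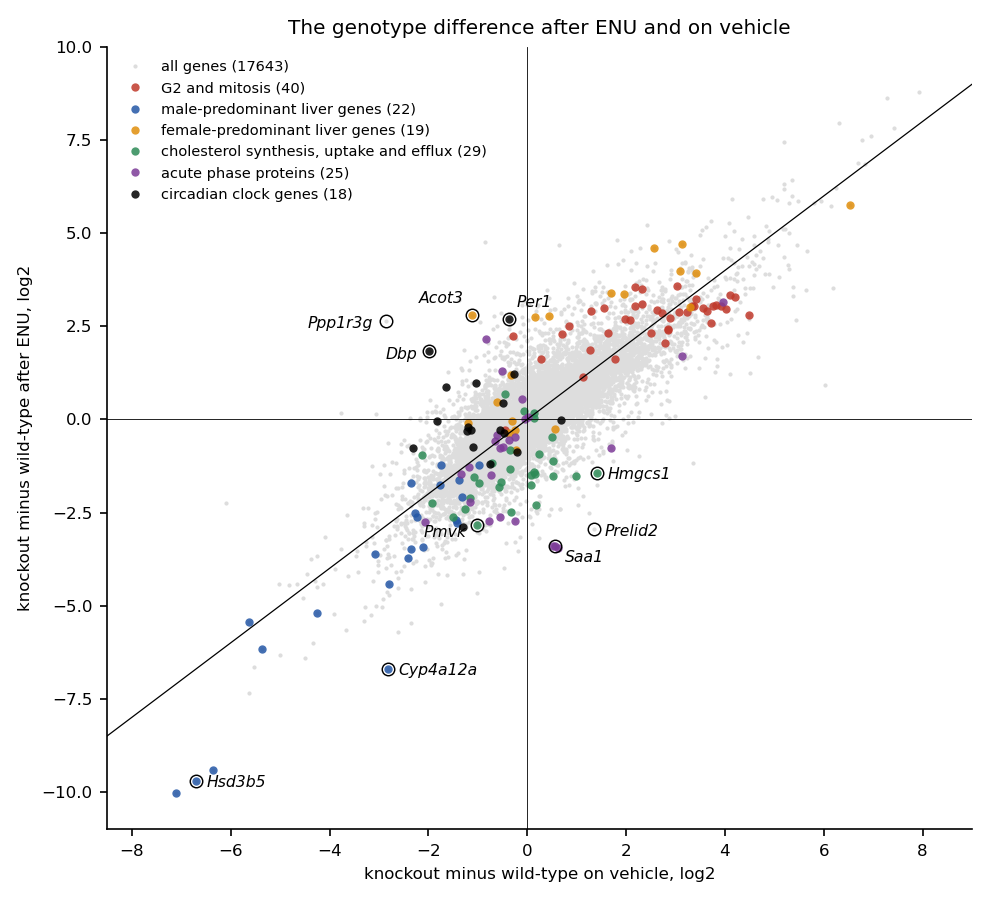
Difference of KO minus WT on vehicle (x axis, log2) and after ENU (y axis, log2) for the 17643 genes measured after ENU (grey), with 6 gene lists in colour and the line of equal differences. Mitosis genes (red) lie above 0 and male-predominant genes (blue) below 0 in both pairs, except Anln, a mitosis gene left of 0 on vehicle, and Pttg1, below 0 in both, while cholesterol genes (green) lie mostly below the line and Ppp1r3g, Dbp and Hmgcs1 lie in opposite quadrants.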

How the data were processed

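RNA of KO and WT livers was hybridised to 1-colour (Cy3) Agilent 44K arrays. Per the file headers the deposited values are spot intensities from Feature Extraction 10.7.1.1, background-subtracted within the array; version 10.5.1 is the one in the submitters' processing notes. The deposited intensities were not scaled between arrays. From these intensities log2 processed signals were computed here, controls and outlier spots left out, the array's 75th percentile subtracted and spots of a probe averaged (Python 3.11.15, pandas 2.3.3, numpy 2.4.6; figures with matplotlib 3.10.9). The 75th percentile was taken over 43379 non-control spots of 45018. Surrogate values for dim spots come with the deposited signal, so probes below background have a bound only. Of the probes, 23082 were named by accession, 6582 by symbol and 3073 by an older symbol of the RefSeq table, and 8437 kept the name in the file. Where a gene had several probes, the one brightest over the 4 arrays stood for it; of 850 genes called higher with several probes 75 had another probe of opposite sign, and of 675 called lower 49. A gene below background on both arrays of a group has an "at least" fold, the bright group's mean over the dim group's detection limit, taken per array as the higher of the lowest signal well above background and the gene's own.

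With 1 RNA sample a group no p-value was computed. The calling steps were tested on simulated data, and normexp and quantile normalization were run with limma 3.58.1 in R 4.3.3 as alternatives. Genes are named by rule: Dicer1, the 20 largest differences in each direction among genes measured in both groups and the 10 largest bounds, key members and the 6 largest differences of each list or family, members that oppose the rest, the 10 largest gaps to vehicle, the longest runs and genes called in opposite directions after ENU and on vehicle. Transcripts known only by an identifier are left out, and some genes that the rule selects are not reported here. Acta2, Akr1b3, Aldh1a2, Aqp1, Cd4, Clec4f, Erbb2, Lrat, Timd4 and Vsig4 were named after their values were seen. The members, lists and families were chosen with earlier results of these data known.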

Additional observations from a re-analysis of the deposited data

Results flagged for a closer look

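Genes called in opposite directions after ENU and on vehicle were set apart. The difference between the 2 differences was not tested for any of them, since each group is 1 RNA sample and treatment and slide cannot be told apart. Values are KO minus WT, log2.

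Higher in KO after ENU and lower on vehicle were Ppp1r3g (2.63 and -2.86), the acyl-CoA thioesterase Acot3 (at least 2.80 and -1.12), the clock output factor Dbp (1.85 and -1.98), the sarcomere protein Myom1 (1.28 and -1.61), the cartilage protein Cilp (at least 1.37 and -1.34), 6030422H21Rik (1.02 and -1.31) and an unnamed probe, A_52_P1156957 (at least 3.21 and -1.38). Myom1 was well above background on only 1 WT array after ENU, and its other probe read 0.18. Without 1 array at a time its difference ran from 0.065 to 1.04, 3 of the 4 values being under 2-fold. The brightest probe was chosen anew each time, and those 3 values come from other probes of the gene. That probe, A_52_P1156957, lies at chr12:82056103-82056162 of mm7, near the Acot3 probe at chr12:82054675-82054734.

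Lower in KO after ENU and higher on vehicle were Hmgcs1 (-1.44 and 1.41), Prelid2 (-2.95 and 1.35), Ptgds (-2.51 and 1.25), the magnesium carrier Slc41a2 (-2.29 and 1.04), the peptidylarginine deiminase Padi4 (-1.17 and at least 3.35), the class II gene H2-Eb1 (-1.12 and 1.73), the blood cell factor Nfe2 (-1.14 and at least 1.32), the oxygen sensor Egln3 (-1.01 and 1.07), Atp11a (-1.05 and 1.14) and Sapcd1 (-1.01 and 1.23). The calls after ENU of 6030422H21Rik, Egln3, Atp11a and Sapcd1 were lost without 1 of the arrays. Padi4 and Nfe2 are expressed by neutrophils, whose markers were higher in KO in both pairs. No group holds 4 or more samples, so no check for a sample far from the others applied.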

How the results depend on the processing

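No paired analysis was possible because the a and b arrays of each genotype were near repeats, so each group counts as 1 RNA sample and no replicate block could be fitted. Of 2533 higher genes 1540 were called with normexp and quantile normalization, and 1252 of 2476 lower ones, out of 1700 higher and 1255 lower genes. Only the lower count moved by over 1.5 times among the alternatives that kept 2-fold; at 4-fold 850 were higher and 522 lower. Median centring gave 2091 higher and 3309 lower genes, 38.7% of calls being higher against 50.6%, and shifted the median of all genes to -0.28. Leaving out 1 array gave 2448 to 2689 higher and 2465 to 2817 lower genes. The Dicer1 difference ran from -0.25 to -0.88 and stayed below 0. Myom1, higher by 1.28 with 75th-percentile scaling, stood at -0.025 with normexp and quantile normalization. The brightest probe of a gene was chosen anew in each setting, so a value can come from another probe. Without KO array a (0.29), KO array b (0.065) or WT array b (0.84) another Myom1 probe stood for the gene, and it was not called. Sapcd1 was no longer called without KO array b (-0.93), nor without WT array a (-0.42), where another probe stood for it. Leaving out 1 array also ended the calls of Nat8l, Cyp2c66, Tnrc6c, 6030422H21Rik and Drosha, with values of 0.81 to 0.99, and those of Atp11a and Egln3, with values of -0.97 to -0.99. It added calls for Mcm7, Igf1r and Cldn4 (higher) and for Cd4 and Srebf2 (lower). Members of the 39 lists called in either direction numbered 486, and 396 to 497 under the alternatives. Lists whose medians lay near 2-fold, such as mature hepatocyte genes, the respiratory chain and mitochondrial ribosomal proteins, gave the largest swings in counts; the cause was not tested. What dim probes can show is limited by background: 362 higher and 120 lower calls rest on bounds.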

Other observations

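Membrane carriers of hepatocytes differed member by member after ENU. Of 17 measured Slc22 carriers of organic ions 5 were lower in KO, such as Slc22a30 (-3.70), and 1 higher. Mitochondrial carriers (Slc25) were lower in 13 of 42 and higher in 4: the citrate carrier Slc25a1 stood at -2.18, while the calcium-regulated ATP carrier Slc25a24 read 2.47 and 2.43 in KO and -1.81 and -1.98 in WT (4.35). Amino acid carriers of the Slc7 family were higher in 4 of 11 and lower in 0, led by Slc7a9 (4.12) and Slc7a8 (2.14), and sugar carriers (Slc2) in 4 of 10, led by Slc2a6 (2.02), with the fructose carrier Slc2a5 lower (-2.13) and the hepatocyte glucose carrier Slc2a2 at -0.71. Among aquaporins Aqp8 (-2.58) and the glycerol channel Aqp9 (-1.49) were lower and Aqp7 (2.40) higher. Acyl-CoA synthetases were lower in 6 of 8, apolipoproteins in 9 of 23 (Apoc3 -2.36) and coagulation factors in 7 of 21 (F9 -1.74, F11 -1.62).

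Immediate early genes of the AP-1 and Egr families were higher in 7 of 13 and lower in 0, among them Egr2 (3.58), Ier3 (3.57) and Jun (2.32), while Egr1 differed by 0.48. Annexins, which bind membranes in a calcium-dependent way, were higher in 5 of 11 and lower in 1, with Anxa2 at 2.90 and 2.91 in KO and 0.17 and 0.11 in WT. Galectins were higher in 3 of 8, led by Lgals2 (4.06) and Lgals1 (1.96). Claudins beside Cldn7 included Cldn6 (at least 16.1-fold) and Cldn23 (at least 8.30-fold), both below background in WT. Receptors of the TNF family were higher in 6 of 16 and lower in 0, and Adam and Adamts proteases in 16 of 33 and lower in 2, led by Adamts15 (3.47) and Adamtsl2 (3.29). Of 64 CD antigens 31 were higher and 5 lower, Cd63 (3.49) the most, whereas the complement shields Cd59b (-3.21) and Cd59a (-1.71) were lower. These counts stand beside 14.4% and 14.0% of all genes and were not tested, and immune cell markers were higher in the same samples.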
